A study of Drosophila melanogaster with 3 samples.

Results

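Of the 10 genes of the circadian clock examined here, 2 carried Bsh:Dam peaks in L4 neurons in every replicate, as did 13.2% of all annotated genes. They were *Pdp1* and *vri*, which encode the pair of bZIP factors of the interlocked clock loop. These 2 were also the longest of the 10, both over 20 kb. Among all annotated genes of 20 kb and over, 47.9% had a highest peak score above 2.5 in every replicate. The other 8, *per*, *tim*, *Clk*, *cyc*, *cwo*, *cry*, *dbt* and *jet*, had no line in the gene list of any of the 3 replicates. The genes were chosen by name, with earlier results of these data known. All lines of each gene list were searched for them, and *dbt* was also looked for as *dco*, its current symbol. Older symbols that point to a single gene were searched too and added no line. They are set against 17684 annotated genes, those of the 6 chromosomes with any peak.

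Binding was profiled by Targeted DamID, in which a Dam methylase fused to the homeodomain protein Bsh marks GATC sites close to where the protein sits on DNA. There was a single group of 3 biological replicates and no comparison between conditions. Each replicate was a pool of pupal laminae from flies that carried the Bsh-TaDa transgene, the L4 driver 31C06-Gal4, its temperature-sensitive inhibitor tubP-GAL80[ts] and the reporter UAS-myristoylated-tdTomato. The fusion was therefore made where 31C06-Gal4 is active and only after the temperature shift, in a window of 46 to 76 hr APF (hours after the pupa forms). The peak scores are already relative to Dam alone, and each replicate was set against Dam by the authors. The L4 label could not be checked against markers, since the files hold binding and not expression.

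The fly clock is a set of feedback loops in transcription. CLK and CYC form a heterodimer that activates *per* and *tim*, and PER and TIM return to the nucleus to inhibit it. The same heterodimer activates *vri* and *Pdp1*, whose products act on *Clk* in opposite directions, VRI as a repressor and the PDP1 epsilon form as an activator. CWO represses targets of CLK and CYC, the kinase DBT phosphorylates PER, CRY is a blue-light photoreceptor, and JET is an F-box protein needed for the light-driven loss of TIM. In the lamina, monopolar neurons change in axon size over the day. Neither *vri* nor *Pdp1* is a clock gene alone, as *vri* acts in cell growth and hair formation and *Pdp1* in growth and muscle gene expression.

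The replicates hold 2834, 2838 and 2891 peaks and 3129, 3093 and 3206 listed symbols. The score of a peak is the value given by the authors' peak caller and has no unit. A gene was called when its highest score was above 2.5, the threshold of the study, in all 3 replicates. By this rule 2 of the 10 clock genes were called, against 9.74% of all annotated genes and 10.6% of protein-coding genes, the class all 10 belong to. The same 2 clock genes had a line of any score in all 3 lists, against 13.2% of annotated genes, and no others had a line in at least 1 list, against 18.0%. *Pdp1* and *vri* were also the longest of the clock genes, at 55.9 and 22.3 kb, and the remaining 8 ranged between 1.58 and 14.1 kb. Of these 8, *jet* was under 2 kb, *cyc* and *cry* were between 2 and 5 kb, and 5 were between 5 and 20 kb. Over all annotated genes the share called was 4.23% under 2 kb, 7.29% from 2 to under 5 kb, 19.6% from 5 to under 20 kb and 47.9% at 20 kb and over. Whether gene length plays a part in which of the clock genes were called was not tested. The files give no read counts, so the depth behind a peak or a missing peak is unknown.

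**Figure D1:**
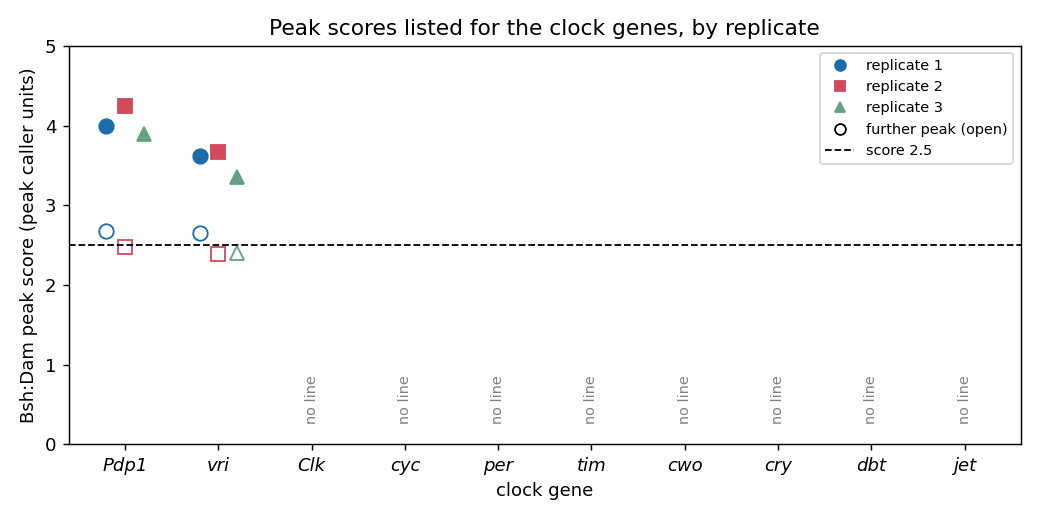
Peak score (vertical axis, peak caller units) of every line listed for each clock gene (horizontal axis), with circles, squares and triangles for replicates 1, 2 and 3, filled for the highest score of a gene and open for a further peak. Only *Pdp1* and *vri* have lines, their highest scores all lie above the dashed line at 2.5, and their further peaks lie on both sides of it.

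*Pdp1* had the highest scores among the clock genes, at 3.99, 4.25 and 3.89 in replicates 1, 2 and 3 (mean 4.04 ± 0.186, SD, n = 3). All 3 values come from a peak with the same borders in every replicate, on chromosome 3L from 7841959 to 7842620 in the coordinates of the peak lists, which name no genome build. It is a short peak of 662 bp, and 7.06%, 8.03% and 8.54% of the peaks in replicates 1, 2 and 3 were shorter. By score it was near the top, above 88.8%, 94.7% and 90.2% of the peaks. The false discovery rate (FDR) given by the peak caller was 7.73e-08, 3.35e-06 and 1.36e-06.

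This peak lies well inside *Pdp1*, 30.5 kb from the border of the annotated gene with the lower coordinate and 24.7 kb from the other border. No other annotated gene lies within 1 kb of it, the distance within which the authors assigned genes. Strand and exon positions were not used here, so it was not assigned to an intron or to the start of a transcript.

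A further *Pdp1* peak, on 3L from 7853197 to 7853655, was found in replicates 1 and 2 only. It is 459 bp long, lies inside the gene 10.6 kb from the first and is within 1 kb of no other gene. Its scores of 2.68 and 2.47 fall on either side of 2.5, and its FDR was 3.41e-03 and 6.16e-03, close to the authors' limit of 0.01. In replicate 3 no peak was called there. *Pdp1* thus had 2, 2 and 1 peaks, and the call of the gene rests on the stronger one.

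*vri* scored 3.62, 3.67 and 3.36 in replicates 1, 2 and 3 (mean 3.55 ± 0.166, SD, n = 3). Its highest peak also had the same borders in all replicates, on chromosome 2L from 5304682 to 5307057. At 2376 bp it is longer than 77.3%, 75.5% and 79.7% of the peaks, whereas the *Pdp1* peak is among the shortest. Its score was above that of 74.8%, 75.5% and 72.2% of the peaks, with an FDR of 5.36e-05, 7.90e-05 and 3.75e-05. The peak lies inside *vri*, 15.7 kb from its lower border and 4.17 kb from its upper border, and no other annotated gene lies within 1 kb.

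The further *vri* peak lies outside the gene and was called in every replicate, with scores of 2.65, 2.39 and 2.40. In replicates 1 and 3 it runs on 2L from 5285419 to 5288292, 652 bp from the lower border of *vri*. In replicate 2 it is wider at both ends, from 5284838 to 5288609, and comes within 335 bp. Only replicate 1 is above 2.5. Although low in score, this broad peak had an FDR of 7.73e-08, 2.29e-06 and 2.20e-08, lower than that of the inner peak. It is not assigned to *vri* alone. The long non-coding RNA genes lncRNA:CR44742 and lncRNA:CR44743 lie within 1 kb of it and are listed with the same scores in all 3 replicates. Which of these genes the peak belongs to was not tested.

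**Figure D2:**
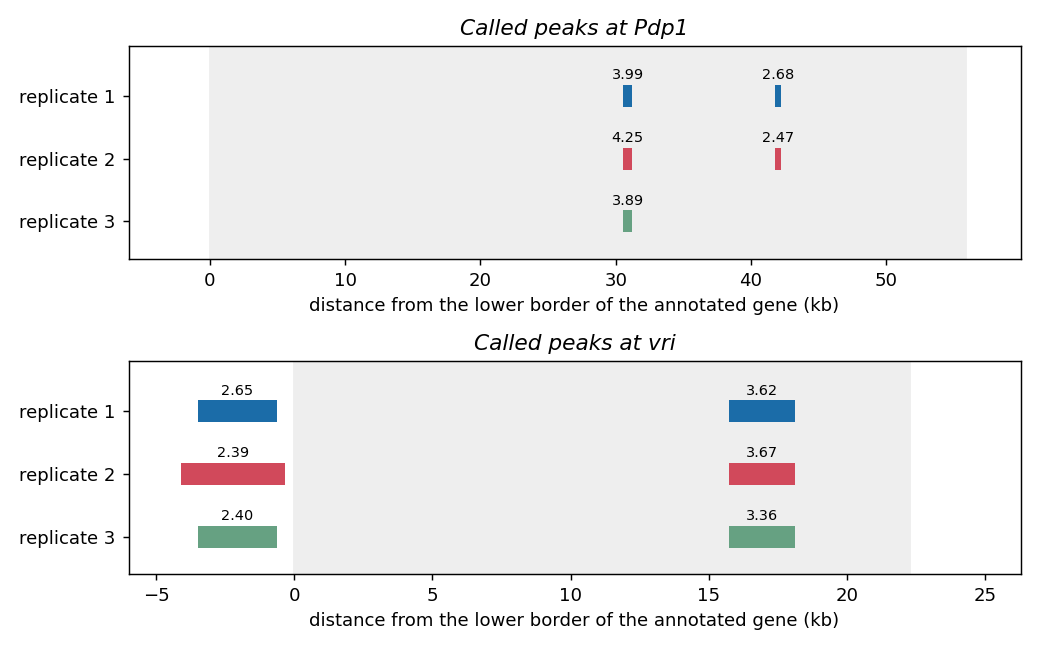
Called peaks (bars, drawn to scale, with their scores) at *Pdp1* and *vri* in each replicate against the distance from the lower border of the annotated gene in kb; grey marks the gene. Both inner peaks keep their place in all replicates, the further *Pdp1* peak is missing in replicate 3, and the further *vri* peak lies outside the gene.

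Within each replicate *Pdp1* scored above *vri*, by 0.37, 0.58 and 0.53 (mean 0.49 ± 0.11, SD, n = 3), and the 2 sets of scores do not overlap. With 3 pairs a two-sided exact permutation test over sign changes cannot go below 0.25, which is the p obtained. Among all listed symbols of the same replicate, the highest score of *Pdp1* was above that of 86.3%, 92.9% and 87.7%, and the highest score of *vri* above that of 71.3%, 72.3% and 69.5%. The median highest score of listed symbols was 3.08, 3.16 and 2.85, so replicate 3 was lowest both for the list and for these genes. Set against the median of the other symbols in its own replicate, *Pdp1* was higher by 0.91, 1.09 and 1.04 and *vri* by 0.54, 0.51 and 0.51.

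**Figure D3:**
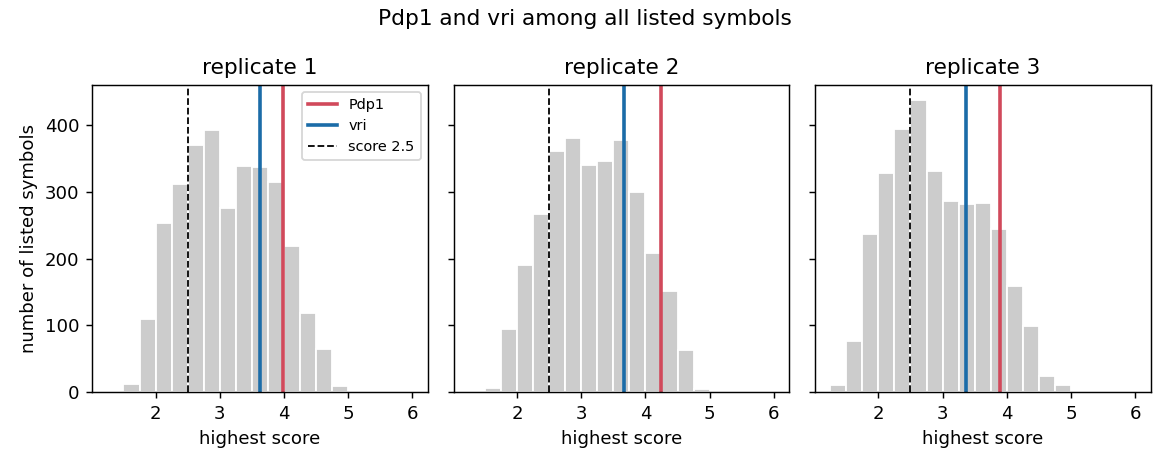
Number of listed symbols (vertical axis) by highest peak score (horizontal axis, bins of 0.25) in replicates 1, 2 and 3, with the scores of *Pdp1* and *vri* as vertical lines and 2.5 dashed. *vri* lies in the upper part and *Pdp1* near the top of each distribution, and neither is at its end.

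The genes with scores most like those of *Pdp1*, by the largest difference over the 3 replicates, were *CG30463* (3.97, 4.25 and 3.91), *sbb* (4.01, 4.25 and 3.87) and *CG45002* (4.01, 4.24 and 3.93). The largest differences were 0.02, 0.02 and 0.04. With 3 values a gene and so many symbols, such likeness is only a description.

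Counted over replicates, 11 peaks lie at the clock genes, and for 9 of them each of the other replicates had an overlapping peak (1 bp or more). The exceptions are the further *Pdp1* peaks of replicates 1 and 2. By replicate these are 3 of 4, 3 of 4 and 3 of 3 peaks, beside 83.6%, 83.4% and 81.9% of all peaks. In each replicate 2 clock gene peaks had the same borders in all 3, and 35.6%, 35.6% and 34.9% of all peaks did.

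For the 8 clock genes without a line, the nearest peak was located by position, and it lay between 5.92 and 66.4 kb away. All annotated genes with no peak within 1 kb had their nearest one at a median distance of 19.0, 19.2 and 18.4 kb in replicates 1, 2 and 3, with the middle 50% between 8.11 and 40.8 kb in replicate 1. Absence from the lists means that no peak passed the authors' limits, and weaker binding cannot be assessed from them.

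The activators of the core loop differed in how close a peak came. *Clk* had one 8.56 kb away in every replicate, on 3L from 7753984 to 7754669, with scores of 2.86, 3.03 and 2.51. It overlaps *CG32373* and *CG7409* and lies on the far side of *Clk* from *Pdp1*, the clock gene on the same arm that starts 35.9 kb beyond *Clk*. Only 26.4%, 26.1% and 27.0% of the genes without a peak were nearer to one. *cyc*, by contrast, was 54.1 kb from the nearest peak, on 3L from 19870062 to 19871252 at *Rab8* and *Usp32*, with scores of 2.70, 2.52 and 2.33. No peak lay within 50 kb of *cyc*.

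Among the repressors of the loop, *tim* was the farthest of all clock genes. Its nearest peak was 64.6, 64.6 and 66.4 kb away at *Pgant2*, with scores of 2.83, 3.15 and 2.89, and 87.0%, 87.1% and 88.9% of the genes without a peak were nearer to one. No replicate had a peak within 50 kb of *tim*. Taken replicate by replicate, 16.2%, 16.2% and 14.9% of all annotated genes had none, and the share with none in every replicate was not taken. *per* was 31.6 kb from a peak on the X chromosome, from 2650810 to 2653968, with scores of 2.18, 2.22 and 2.03. That peak overlaps *sgg*, which encodes the GSK-3 kinase that phosphorylates TIM. The *sgg* gene lies 6.03 kb from *per*. *cwo* was 34.0 kb from a broad peak of 3890 bp at *jumu*, which scored 2.95, 3.11 and 2.66.

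The remaining genes act on the stability of PER and TIM. *dbt* was 19.3 kb from a peak of 490 bp on 3R, from 31034335 to 31034824, close to the median distance of genes without a peak. This peak scored 4.41, 4.25 and 4.22, higher than the *Pdp1* peak in replicates 1 and 3 and equal to it in replicate 2. It is 522 bp from *CG33773*, within the 1 kb at which genes were assigned, whereas *dbt* lies well outside that distance. *jet* was 45.2, 45.2 and 45.1 kb from a peak at *Rtnl1*, with scores of 2.41, 2.36 and 2.10.

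*cry* was the only clock gene whose nearest peak changed between replicates. In replicates 1 and 3 it lay 5.92 kb away, the shortest distance among the clock genes without a line, with scores of 3.50 and 2.92. The replicate 1 peak ran on 3R from 19205555 to 19206234 and had an FDR of 9.19e-03, near the limit. In replicate 3 it started at 19204791 and ended at the same base. Replicate 2 had no peak at that place, and its nearest one was 54.6 kb away. In replicates 1 and 3 the annotated gene closest to the peak was *myd*, at 4459 and 3695 bp, and in replicate 2 it was lncRNA:CR44173, at 4762 bp. None of these peaks lies within 1 kb of any gene, so no gene list holds them.

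**Figure D4:**
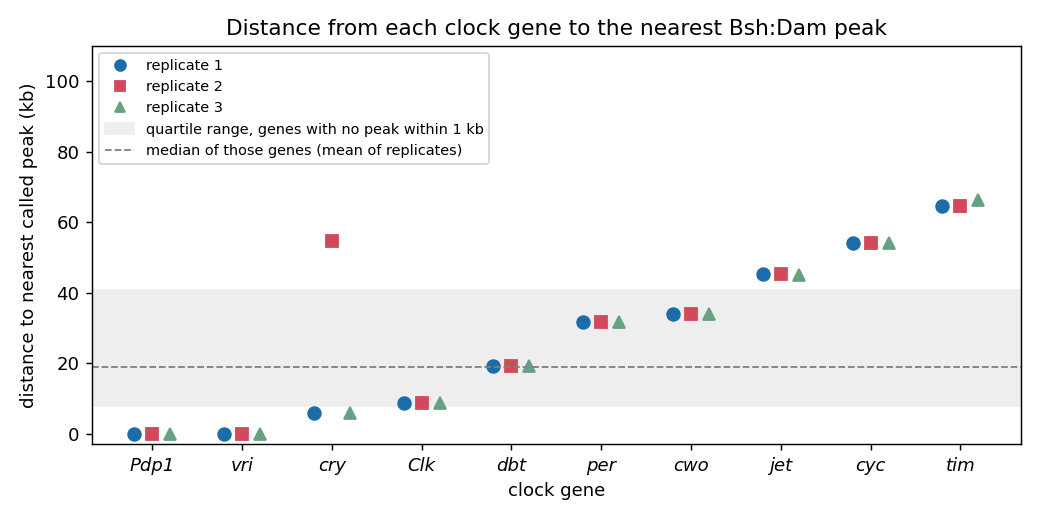
Distance in kb (vertical axis) from each clock gene to the nearest called peak in each replicate, with a band from the lowest lower quartile to the highest upper quartile over the replicates, and the median averaged over them (dashed), of all genes with no peak within 1 kb. *Pdp1* and *vri* are at 0, and the rest spread out between 5.92 kb for *cry* and 66.4 kb for *tim*.

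A further 52 genes that act with the clock were counted by the same rule, and 16 (30.8%) were called, against 9.74% of all annotated genes. The list was chosen with earlier results of these data known, so this share is a description and not independent evidence. This list too holds long genes, with a median of 11.2 kb against 1.71 kb for all genes. By length class, 0 of 4 were called under 2 kb, 1 of 6 from 2 to under 5 kb, 7 of 27 (25.9%) from 5 to under 20 kb, and 8 of 15 (53.3%) at 20 kb and over. In the 2 longer classes the share over all genes was 19.6% and 47.9%. With a threshold of 3 in place of 2.5, 10 of the 52 were called, against 6.22% of all annotated genes. Shares by length class were not taken at 3, so this contrast does not allow for gene length. Among the genes not called at 2.5, 28 had no line in any replicate.

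The roles in this list hold few genes and differ in gene length, so each count is given with its length classes. Each is to be read against the share of all annotated genes called. This share was 9.74% over all lengths, 4.23% under 2 kb and 7.29% from 2 to under 5 kb. It was 19.6% from 5 to under 20 kb and 47.9% at 20 kb and over. Among the kinases and phosphatases that act on PER or TIM, listed together with the DBT-binding protein gene *bdbt*, 2 of 8 were called. This was 1 of 3 at 20 kb and over and 1 of 4 from 5 to under 20 kb. The remaining gene, *bdbt*, is under 2 kb and was not called. The called genes were *sgg* (3.74, 3.83 and 3.67) and *tws*, a regulatory subunit of PP2A (3.87, 3.93 and 3.53). The kinase gene *nmo* varied most among those of the 52 genes with a line in every replicate, with 2.74, 3.68 and 1.94, and was not called. None of 4 genes of protein turnover was called, 0 of 2 from 5 to under 20 kb and 0 of 2 from 2 to under 5 kb. The nearest to it was *slmb*, which encodes the F-box protein that targets phosphorylated PER, with 2.56, 2.44 and 2.28.

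Of the transcription partners, 3 of 7 were called, 3 of 5 at 20 kb and over and 0 of 2 from 5 to under 20 kb. They were the nuclear receptor gene *Eip75B* (4.27, 4.51 and 4.55), *Mef2* (3.73, 3.87 and 3.72) and the chromatin remodeller *kis* (3.40, 3.69 and 2.87). *Eip75B* is 114.0 kb long and had 7, 9 and 8 peaks. Of the genes of translation and RNA, all under 20 kb, 4 of 6 were called, 3 of 4 from 5 to under 20 kb and 1 of 2 below that. They include *Atx2* (3.38, 3.44 and 3.17) and *tyf* (2.97, 2.91 and 3.45), which act together on the translation of *per*. The others, *pAbp* and *Lsm12*, scored between 2.59 and 2.75. *Lsm12* is listed under an older symbol.

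Of the light and temperature input genes, 1 of 7 was called. By length it was 1 of 3 from 5 to under 20 kb. None of 2 from 2 to under 5 kb and none of 2 at 20 kb and over was called. The called gene was *nocte*, which is needed for entrainment by temperature. Its scores of 4.14, 4.16 and 4.12 varied least among the 16 called genes. Of the output and clock neuron genes, 6 of 20 were called, 4 of 5 at 20 kb and over and 2 of 12 from 5 to under 20 kb. None of the 3 under 2 kb was called. *Pdfr*, the receptor of the clock neuropeptide PDF, scored 4.34, 3.76 and 4.25, while *Pdf* itself had no line. The others were *slo* (3.61, 3.35 and 3.41), *sNPF* (3.38, 3.33 and 3.17), *e* (3.18, 3.52 and 3.18), *Dh44* (3.23, 3.21 and 2.86) and *dysc* (2.70, 2.83 and 2.73). *Dh44-R1* scored 4.18 and 4.11 in replicates 1 and 2 and had no line in replicate 3.

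**Figure D5:**
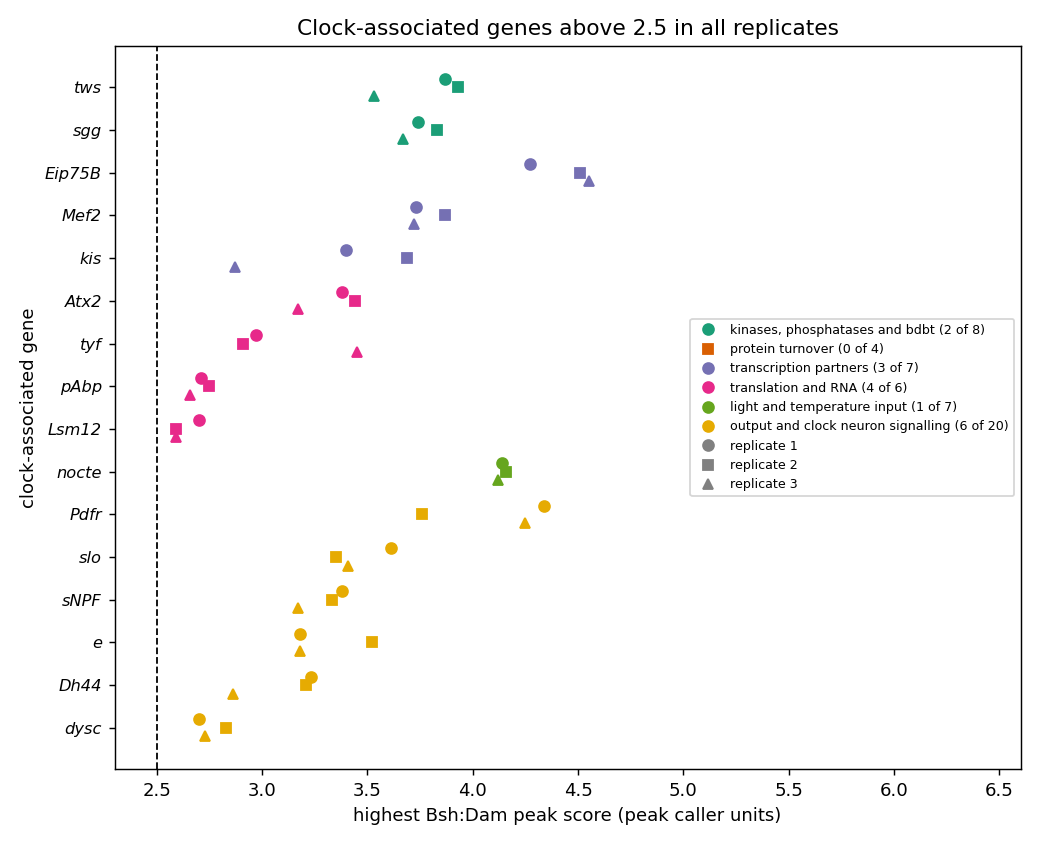
Highest peak score (horizontal axis, peak caller units) of the 16 called clock-associated genes in replicates 1, 2 and 3 (circles, squares and triangles), coloured by role, with the number called of the number in each role. *Eip75B*, *nocte* and *Pdfr* had the highest mean scores, and the dashed line marks 2.5.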

How the data were processed

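For every replicate the authors checked reads with FastQC 0.11.9 and ran the damidseq pipeline to obtain a log2 ratio of Bsh:Dam over Dam. Peaks came from find_peaks, run at an FDR limit of 0.01 with min_quant set to 0.9, and peaks2genes then paired each peak with genes up to 1 kb away. The deposited files hold a score for each peak and each gene line. How this score is scaled is not given in the sources used here, and neither is the genome build. Peaks were called in each replicate and not on pooled reads. Dam libraries and read alignments were not analysed here.

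Gene names, lengths, neighbours and distances were taken from RefSeq (assembly Release 6 plus ISO1 MT). The score of a matched gene line was found among peaks within 1 kb of that gene for 99.9% of lines in each replicate, and for 7.14% to 8.35% after shifting genes by 50000 bp. No annotation position is printed. Lines that name a transcript (mostly of CR genes) were not matched. Of the listed symbols, 2735 of 3129, 2694 of 3093 and 2791 of 3206 were matched in replicates 1, 2 and 3. An annotated gene with unmatched lines only counts as not called, so the shares over all annotated genes may be too low. Genes were matched by current symbol, or by an older symbol that points to a single gene. Computation used Python 3.11.15, numpy 2.4.6, scipy 1.17.1 and matplotlib 3.10.9, and overlap and calling were tested on simulated data.

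The clock genes and the list of clock-associated genes were chosen with earlier results of these data known, and length classes after the values were seen. Named genes are the 10 clock genes, genes within 1 kb of their peaks or nearest to their nearest peak, called clock-associated genes, and the 3 genes with scores most like those of the highest clock gene. The clock-associated genes *bdbt*, *nmo*, *slmb*, *Pdf* and *Dh44-R1* were named after their values were seen. The alternatives were a score threshold of 3 or none, fewer replicates required, an FDR below 0.001, assignment by position with and without 1 kb, the mean over a gene's lines, a reciprocal overlap of 50% and each replicate left out. Motifs were planned and not searched, since no sequence was used here.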

Additional observations from a re-analysis of the deposited data

How the results depend on the processing

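*Pdp1* and *vri* were the called clock genes, 2 in number, under all 10 alternatives tried for that count. These alternatives could not have changed it. The other clock genes had no line in any replicate and no peak nearer than 5.92 kb, so looser settings could add none. The inner peaks of *Pdp1* and *vri* scored 3.36 or more, with an FDR of 7.90e-05 or lower, so stricter settings could remove neither. The unchanged count is therefore no test of how stable the calls are. Taking the mean over a gene's lines in place of the highest score moved *Pdp1* to 3.53 and *vri* to 3.02, since their further peaks are then averaged in. Leaving out each replicate in turn gave 3.94 to 4.12 for *Pdp1* and 3.49 to 3.64 for *vri*. The share of clock gene peaks matched in each of the other replicates averaged 83.3% and was 100.0% for peaks with an FDR below 0.001, which leaves out the further *Pdp1* peak. Leaving out each replicate gave 87.5% to 100.0%, and it was 100.0% without replicate 3. An overlap is then required in fewer replicates, so the share within a remaining replicate can only stay or rise. Replicate 3 is the replicate that lacks the further *Pdp1* peak, so the 100.0% without it follows from that. The share of all peaks was not taken under these settings or at the stricter FDR. These values therefore do not show whether clock gene peaks differ from other peaks. Of the 52 clock-associated genes, 10 were called with a threshold of 3, against 16, and 16 to 18 with a replicate left out. Leaving out a replicate can only keep or raise this count, since fewer replicates are then required. No paired analysis was possible because the samples form a single group, so no samples could be paired between groups (*Pdp1* and *vri* were compared as genes within the same replicates). The files hold no counts, so depth sets no interval here.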
